A study of Homo sapiens with 18 samples.

Results

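Oxidative phosphorylation is carried out by enzyme complexes of the inner mitochondrial membrane whose subunits are encoded in 2 genomes, and the genes for these subunits are described here across cytarabine treatment and DNMT3A genotype. Members were the protein-coding genes of the count table whose symbols begin with NDUFA, NDUFB, NDUFC, NDUFS, NDUFV (assembly factors with NDUFAF left out), UQCR, COX4 to COX8, ATP5 or MT-. This rule took 94 of the 25296 genes, of which 81 are encoded in the nucleus and 13 in mitochondrial DNA. By complex, the nuclear members comprised 38 genes of complex I, 9 of complex III, 14 of complex IV (NDUFA4 included) and 20 of complex V, and the mitochondrially encoded members 7, 1, 3 and 2. Of the 94 members, 92 had enough counts to be tested; COX7A1 and ATP5MGL did not, with at most 6 and 7 counts in any library.

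The cells were U2OS, an established human osteosarcoma line, made to overexpress DNMT3A, a DNA methyltransferase. The 3 derived lines carried the MigR1 empty vector (EV), DNMT3A wild type (WT) or mutant DNMT3A (MUT), named R882C in the series text and R882H in the sample labels. Each line was sampled untreated (a vehicle control in the series text) and after 24 h in 10 µM cytarabine, a cytidine analogue that is incorporated into DNA and stalls replication, with 3 replicates labelled as biological in each of the 6 groups. The labels do not say whether a line is 1 clone or a pool, and the lines keep their own DNMT3A gene, whose transcripts the table does not separate from the introduced ones.

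In oxidative phosphorylation, complexes I, III and IV pass electrons from NADH to oxygen and pump protons, and complex V (ATP synthase) uses the proton gradient to make ATP. Mitochondrial DNA is transcribed from both strands as long precursors that are cut into separate mRNAs, tRNAs and rRNAs, so levels of its mRNAs also depend on processing and decay. The nuclear subunits are transcribed one by one, and promoters of many of them are known targets of NRF1, of ETS factors and of YY1.

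Some mitochondrial reading frames overlap. The overlaps of MT-ATP8 and MT-ND4L are shown because these genes gave the least reproducible values of all mitochondrially encoded members. Whether the overlaps play a part in that was not tested. MT-ATP6 and MT-CO3 also share 1 base, which is not shown. In hg38 the last 46 bases of MT-ATP8, 22.2% of its length, are also the first bases of MT-ATP6 (chrM:8527-8572, plus strand). The last 7 bases of MT-ND4L, only 2.36% of its length, are the first of MT-ND4 (chrM:10760-10766, plus strand). The shared bases are in capitals, with 12 flanking bases on each side, so that each run of capitals opens with the start codon of the second gene.
MT-ATP8 into MT-ATP6: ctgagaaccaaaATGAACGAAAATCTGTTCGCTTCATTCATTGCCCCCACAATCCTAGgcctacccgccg
MT-ND4L into MT-ND4: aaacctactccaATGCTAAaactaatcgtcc

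For the nuclear members, the promoter of ATP5F1C, the gamma subunit of ATP synthase, is shown as the one window with an exact NRF1 palindrome among members that fell with cytarabine in every line. Of the other 2 members with the palindrome, NDUFA8 rose in EV and NDUFB4 passed in no line. The window is the 250 bases upstream of the RefSeq start in GRCh38.p14 (chr10:7787927-7788176, plus strand). Capitals mark the NRF1 palindrome, which begins at -22 and is nearest that start, and GGGCGGG (SP1), which begins at -169. Other annotations start the gene within this window, at 7788129 in the count table and 7788147 in GENCODE v44. The palindrome lies downstream of both of those starts, so its place relative to the start depends on the annotation.
ATP5F1C upstream: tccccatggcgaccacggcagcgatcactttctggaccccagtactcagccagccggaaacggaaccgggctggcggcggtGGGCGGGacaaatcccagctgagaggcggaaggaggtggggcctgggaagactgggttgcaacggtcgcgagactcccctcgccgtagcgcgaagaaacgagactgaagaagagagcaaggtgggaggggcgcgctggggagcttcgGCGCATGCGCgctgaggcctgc

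RefSeq windows of 300 bases (250 before and 50 after a start) were at hand for 65 of the 81 nuclear members, in 78 windows. Searched exactly on both strands, the NRF1 palindrome was in 3.85% of the members' windows and in 1.24% of all 35116 windows. The ETS core CCGGAAG was in 25.6% against 10.3%, the YY1 motif AAGATGGCG in 11.5% against 1.75%, and the SP1 box GGGCGGG in 33.3% against 33.1%. The end of CCGGAAG and the start of AAGATGGCG share the letters AAG, so matches of that pair can overlap, and a match describes the sequence only.

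Library totals ran from 15.4 to 21.9 M (mega) estimated counts. Levels are given as CPM, counts per M counts after TMM scaling of the library sizes, and changes as log2 fold changes ± SE from 1 edgeR quasi-likelihood fit of all libraries, with p-values adjusted by Benjamini-Hochberg over the 18226 genes tested and a threshold of 0.05. DNMT3A, the introduced gene, ran from 26.2 to 27.5 CPM in untreated EV, 129 to 139 CPM in untreated WT and 254 to 615 CPM in untreated MUT. Of the lineage genes looked at, VIM, SPARC and FN1 were abundant (medians of 1600, 1040 and 502 CPM) and the osteoblast transcription factor RUNX2 was at a median of 44.4 CPM, whereas the late osteoblast gene BGLAP was at most 0.437 CPM. COL1A1, ALPL and COL1A2 of the same list had medians of 176, 9.25 and 1.9 CPM, and SP7 was not among the counted genes. The summed epithelial, blood and endothelial, and muscle markers stayed at or below 10.6, 5.23 and 16.7 CPM. The summed mesenchymal and osteoblast markers ran from 3670 to 4160 CPM in untreated and 2690 to 3170 CPM in treated libraries. The other 3 sums had higher ranges in treated than in untreated cells of each line, and the part of these shifts in the results was not tested. CPM are shares of a library: in bulk cells, fewer cells of a kind and less RNA per cell cannot be told apart.

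Some libraries stood apart for these genes. Untreated MUT replicate 3 had the highest summed level of nuclear members of any library, 14478 CPM, and was the highest of the 9 untreated libraries for 69 of the 79 tested nuclear members. Untreated MUT replicate 2 had 9970 CPM, and its mitochondrially encoded sum of 44666 CPM was far above the 26305 and 27497 CPM of replicates 1 and 3. The same 3 libraries spanned the DNMT3A range, with 500 CPM in replicate 1, 615 CPM in replicate 2 and 254 CPM in replicate 3. Treated EV replicate 2, the smallest library, had a mitochondrially encoded sum of 44658 CPM against 30858 and 32412 CPM in its replicates. Counts of calls over all nuclear or mitochondrially encoded members, and some named genes, are given with and without some of these libraries. Counts by complex and most named genes are given with all libraries only.

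Summed over the nuclear members, the level fell with cytarabine by this scaling in every line. Untreated EV libraries held 9950, 10043 and 9777 CPM and treated ones 9196, 8136 and 8967 CPM. In WT the untreated sums were 10374, 10339 and 10011 CPM and the treated sums 8801, 8706 and 9166 CPM. In MUT they were 11175, 9970 and 14478 CPM untreated and 8946, 8517 and 9085 CPM treated. Treated and untreated libraries did not overlap within any line, and the treated groups of the 3 lines lay close together, with means of 8766, 8891 and 8849 CPM. With 3 libraries against 3 no exact permutation test of such a sum can pass the threshold, and none was run.

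The direction of that change depends on how libraries are scaled. As plain percentages of all counts, the nuclear members made up 0.935 ± 0.0087% of untreated and 0.942 ± 0.0881% of treated EV libraries (SD, n = 3), 0.978 ± 0.0198% and 0.964 ± 0.0268% in WT, and 1.06 ± 0.185% and 0.944 ± 0.0255% in MUT. Scaled by library totals alone, the median nuclear member moved by 0.07 in EV, -0.01 in WT and -0.17 in MUT (log2), while the median of all tested genes moved by 0.24, 0.21 and 0.31. With TMM factors the same medians were -0.12, -0.19 and -0.43 for nuclear members and 0.05, 0.03 and 0.05 for all genes. With TMM the median nuclear member was lower than the median gene by 0.17, 0.21 and 0.49, a difference that scaling cannot move because a factor shifts all genes of a library alike.

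The 13 mitochondrially encoded genes together were more abundant than the 81 nuclear ones in every library. Their sum was 34811, 31761 and 29750 CPM in untreated EV and 30858, 44658 and 32412 CPM in treated EV. In WT it was 30562, 27906 and 29895 CPM untreated and 28332, 26346 and 25701 CPM treated, and in MUT 26305, 44666 and 27497 CPM untreated and 26828, 27580 and 25520 CPM treated. The ratio of the mitochondrially encoded to the nuclear sum, which needs no scaling between libraries, was 3.23 ± 0.236 in untreated and 4.15 ± 1.16 in treated EV (SD, n = 3). It was 2.88 ± 0.155 and 3.02 ± 0.208 in WT and 2.91 ± 1.38 and 3.02 ± 0.215 in MUT. Treated and untreated ratios overlapped in all 3 lines, so no shift in the balance of the 2 genomes was seen beyond the spread of the libraries. The 1.90 of untreated MUT replicate 3 and the 5.49 of treated EV replicate 2 were the extremes.

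**Figure D1:**
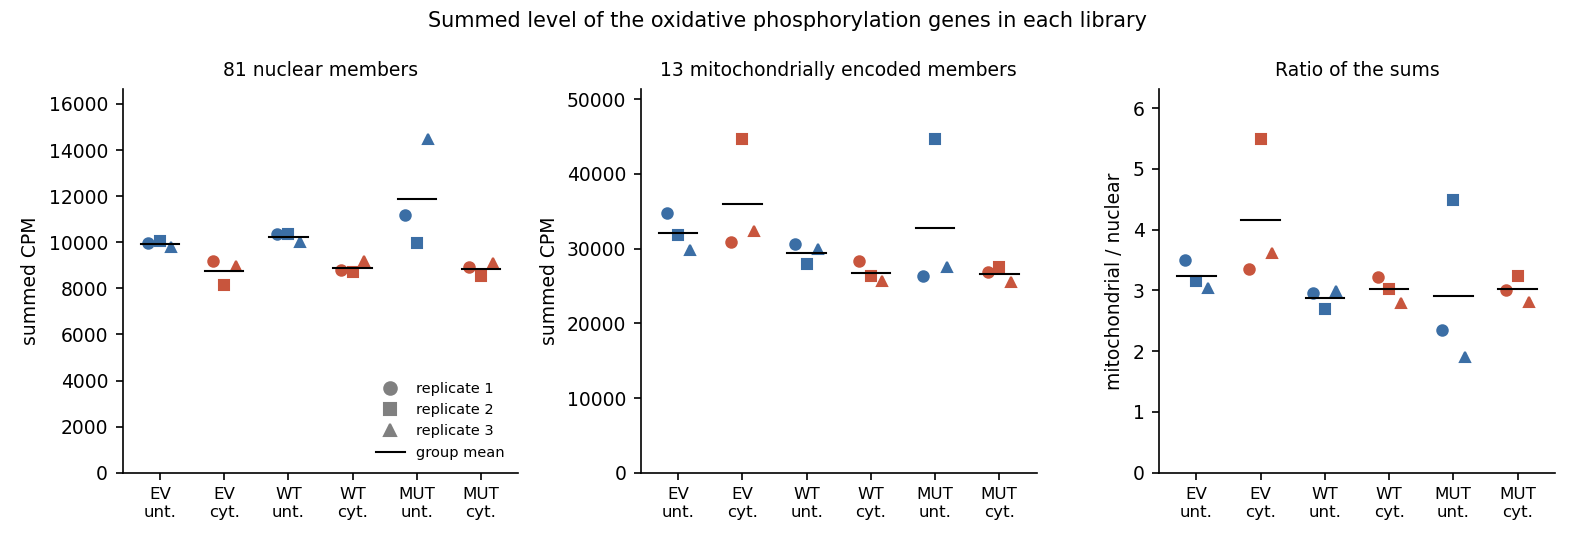
Summed CPM of the 81 nuclear members (left), of the 13 mitochondrially encoded members (middle) and the ratio of the sums (right), with 1 point per library, symbols for replicates and lines for group means. Treated nuclear sums (8136 to 9196 CPM) lie below every untreated sum (9777 to 14478 CPM), whereas the ratios of treated and untreated libraries overlap in each line.

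Levels differed widely between members once divided by transcript length (Ensembl canonical transcript in GENCODE v44). Averaged over all libraries, mitochondrially encoded members ran from 536 CPM per kb for MT-ATP8 to 6620 CPM per kb for MT-CO1, the catalytic subunit of complex IV. The highest nuclear member was 456 CPM per kb in complex I (NDUFB9), 413 in complex III (UQCRHL), 568 in complex IV (COX8A) and 629 in complex V (ATP5MF). MT-ATP8 was the only mitochondrially encoded member below the highest nuclear ones. UQCRHL is a copy of the hinge-protein gene UQCRH and may share reads with it (197 CPM per kb), so their split is uncertain. The lowest were UQCRB in complex III at 12.8 CPM per kb, and NDUFC2-KCTD14, COX6B2 and ATP5MGL in complexes I, IV and V at 1.44, 0.168 and 0.0964. NDUFC2-KCTD14 and ATP5MF-PTCD1 are read-through genes, for which the assignment of reads is uncertain as well.

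Subunits that exist as isoforms of complex IV and of the ATP synthase c ring were represented mostly by the general form. COX6B1 was at 102 ± 2.68 CPM in untreated EV (SD, n = 3) and the testis form COX6B2 at 0.178 ± 0.0587 CPM. COX7A2 was at 118 ± 5.62 CPM and COX7A2L, which takes part in joining complexes into supercomplexes, at 155 ± 2.69 CPM, whereas the muscle form COX7A1 was at 0.0799 ± 0.0693 CPM. COX4I1 and COX6A1 were at 305 ± 13.7 and 140 ± 6.63 CPM; their isoforms COX4I2 and COX6A2 were not analysed here. The 3 genes for the c subunit, ATP5MC1, ATP5MC2 and ATP5MC3, encode the same mature protein and were at 71.8 ± 0.798, 162 ± 2.65 and 183 ± 6.84 CPM.

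Cytarabine lowered 19 of the 79 tested nuclear members in EV, 25 in WT and 56 in MUT, and raised 3, 1 and 2. Over all tested genes the background was 22.9% lower and 26.1% higher in EV, 22.7% and 26.3% in WT, and 25.9% and 30.4% in MUT. In EV the count of lowered members was therefore near the background and the count of raised ones below it, and in MUT the count of lowered ones was above it. Library totals alone gave 10 lower and 9 higher members in EV, 10 and 6 in WT, and 28 and 3 in MUT. With the compared groups alone in the fit, EV had 30 calls in either direction, WT had 57 and MUT had 42. The fit of all libraries gave 22, 26 and 58, so the order of WT and MUT was not the same in these fits. Shares of all genes called with library totals or with the compared groups alone are not given, so those counts have no background beside them. In all 3 lines 14 members fell, 17.7% of those tested against 16.4% of all genes, and 1 member, ATP5IF1, rose, 1.27% against 18.9%. The threshold for a fall was passed in no line by 22 of the 79 members, ATP5IF1 included, and by 12399 of the 18226 genes. The treated libraries all lay below all untreated ones, 9 against 9, for 19 nuclear members, where the background was 12.1% of all genes, and all above for none (12.8%).

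Complex V had the largest share of members that fell. Of its 19 tested nuclear members 7 fell in EV, 8 in WT and 16 in MUT, with medians of -0.22, -0.22 and -0.43. Over all genes 22.9%, 22.7% and 25.9% fell. In all 3 lines 7 members fell, 36.8% against 16.4% of all genes: ATP5F1A, ATP5F1B, ATP5F1C, ATP5F1D, ATP5MC1, ATP5MC2 and ATP5PB. The F1 head, where ATP is made, was the most uniform: 4 of its 5 subunits fell in EV and WT and all 5 in MUT. The calls for ATP5F1A, ATP5F1B, ATP5F1C and ATP5F1D in all 3 lines held in each of the 18 fits with a library left out.

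ATP5F1B (chromosome 12, 56638175 to 56646069, minus strand) encodes the catalytic beta subunit. Its level was 647, 627 and 646 CPM in untreated EV and 464, 466 and 467 CPM in treated EV. In WT it was 569, 575 and 569 CPM untreated and 434, 432 and 424 CPM treated, and in MUT 635, 667 and 762 CPM untreated and 424, 426 and 439 CPM treated. Every treated library lay below every untreated one. The log2 changes were -0.46 ± 0.0614 in EV, -0.41 ± 0.0614 in WT and -0.68 ± 0.0615 in MUT (edgeR adjusted p = 5.01e-06, 1.81e-05 and 2.56e-08).

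ATP5F1A (chromosome 18, 46080248 to 46104335, minus strand) encodes the alpha subunit that alternates with beta in the F1 ring. It was at 275, 276 and 277 CPM in untreated and 199, 204 and 211 CPM in treated EV, at 285, 271 and 264 against 208, 205 and 205 CPM in WT, and at 248, 242 and 321 against 176, 180 and 176 CPM in MUT. The groups did not overlap, and the log2 changes were -0.43 ± 0.0804, -0.41 ± 0.0802 and -0.61 ± 0.0805. ATP5F1C (chromosome 10, 7788129 to 7807816, plus strand), the gamma subunit of the rotating stalk whose promoter is printed above, fell by 0.36 ± 0.0741, 0.38 ± 0.0739 and 0.49 ± 0.0742 on the log2 scale. ATP5F1D, the delta subunit of the same stalk, changed by -0.52 ± 0.139, -0.49 ± 0.138 and -0.62 ± 0.137. The remaining F1 subunit, ATP5F1E, changed by -0.21 ± 0.137 and -0.22 ± 0.137 in EV and WT, which did not pass (adjusted p = 0.227 and 0.2, edgeR), and by -0.43 ± 0.137 in MUT (adjusted p = 0.0114, and 0.0665 without untreated MUT replicate 3).

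The c ring and the stator followed a mixed course. ATP5MC2 (chromosome 12, 53632726 to 53677409, minus strand) was at 165, 160 and 162 CPM in untreated and 121, 110 and 109 CPM in treated EV, at 193, 196 and 185 against 111, 110 and 121 CPM in WT, and at 183, 145 and 210 against 120, 117 and 115 CPM in MUT. Its change of -0.75 ± 0.0926 in WT was the largest fall of a nuclear member with an abundance of at least 1 (mean log2 CPM) in that line. ATP5MC1 fell in each line (-0.47, -0.30 and -0.58), whereas ATP5MC3, which encodes the same mature c subunit, changed by -0.06 ± 0.092 and -0.09 ± 0.0918 in EV and WT without passing and fell by 0.31 ± 0.0916 in MUT (adjusted p = 0.00783, edgeR). ATP5PB, the peripheral stalk b subunit, changed by -0.51 ± 0.137, -0.38 ± 0.137 and -0.77 ± 0.137; its fall was called in all 3 lines in 14 of 18 fits with a library left out. ATP5ME, a small membrane subunit, fell in WT (-0.55 ± 0.158) and MUT (-0.42 ± 0.158).

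ATP5IF1 (chromosome 1, 28236109 to 28246907, plus strand), the inhibitor that binds F1 and blocks ATP hydrolysis, moved the other way. Its level was 83.4, 77.3 and 78.9 CPM in untreated and 129, 92.3 and 114 CPM in treated EV. In WT it was 91.6, 85.8 and 84.4 CPM against 107, 104 and 120 CPM, and in MUT 103, 71.6 and 102 CPM against 118, 109 and 113 CPM. Treated libraries were higher in each line without overlap, although treated EV replicate 2 lay below untreated MUT replicates 1 and 3. The log2 changes were 0.49 ± 0.119, 0.34 ± 0.118 and 0.30 ± 0.118 (adjusted p = 0.00206, 0.0227 and 0.0381, edgeR). The call was less stable than those of the falling subunits, holding in 11 of 18 fits with a library left out.

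**Figure D2:**
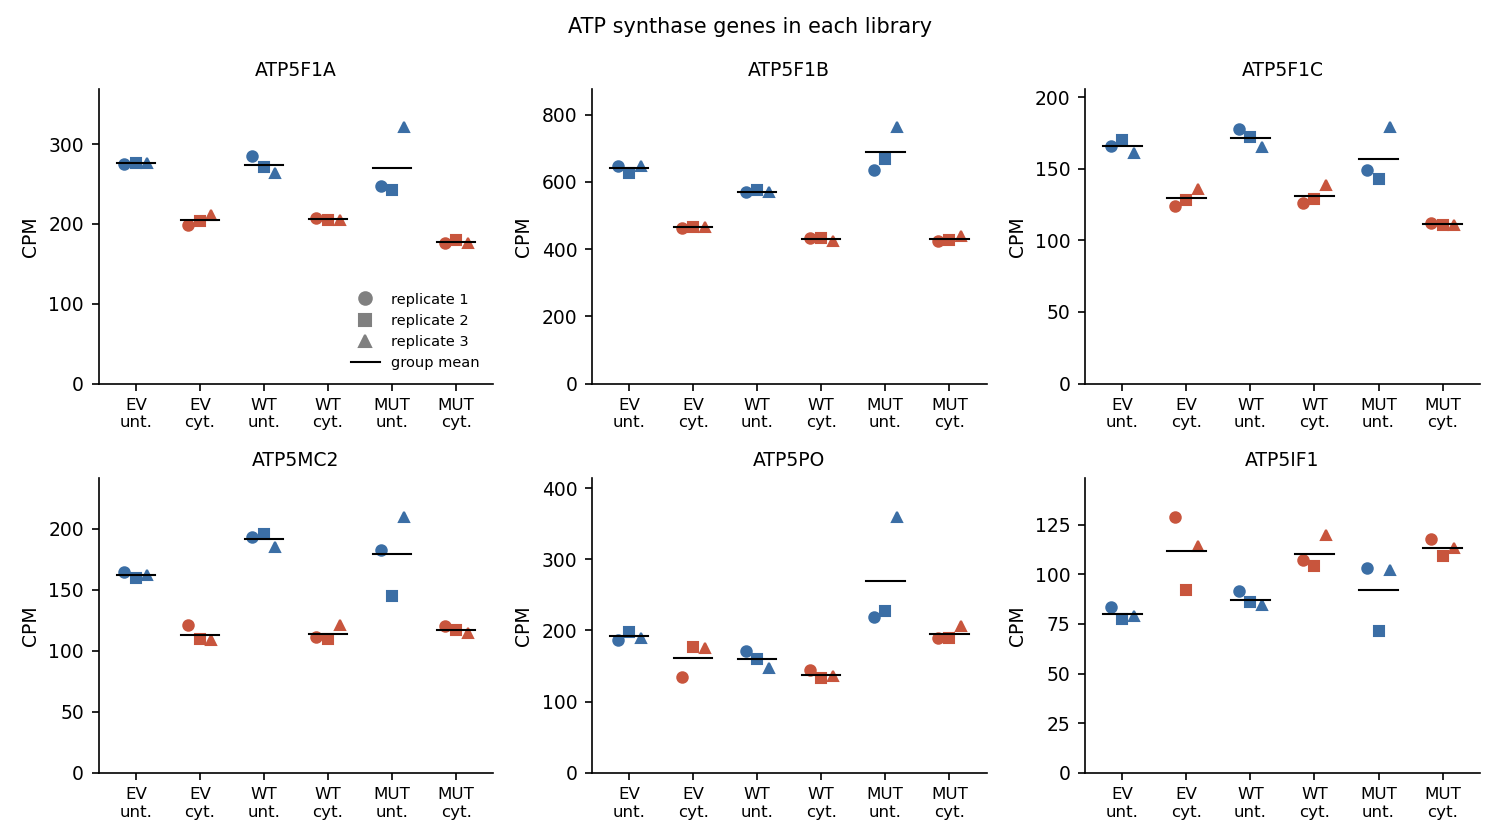
CPM of 6 ATP synthase genes in each library (symbols for replicates, lines for group means, axes from 0). ATP5F1A, ATP5F1B, ATP5F1C and ATP5MC2 are lower in every treated library than in any untreated one, ATP5PO is highest in untreated MUT replicate 3 (360 CPM), and ATP5IF1 is higher with cytarabine within each line.

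In complex I, 10 of 38 nuclear members fell in EV, 14 in WT and 27 in MUT, where 22.9%, 22.7% and 25.9% of all genes fell. In all 3 lines 7 members fell, among them NDUFAB1, NDUFB9, NDUFS4 and NDUFS6. These 7 are 18.4% of the members, near the 16.4% of all genes, and the count in EV was near its background as well. NDUFB9 (chromosome 8, 124539101 to 124580649, plus strand), an accessory subunit of the membrane arm, was at 332, 341 and 303 CPM in untreated and 249, 236 and 251 CPM in treated EV, at 347, 332 and 334 against 241, 240 and 265 CPM in WT, and at 411, 447 and 530 against 277, 268 and 264 CPM in MUT. All treated libraries were below all untreated ones. The changes were -0.41 ± 0.0791, -0.44 ± 0.079 and -0.78 ± 0.0792, the last being the largest fall in MUT among the abundant nuclear members without overlap.

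NDUFAB1, the acyl carrier protein that also serves mitochondrial fatty acid and iron-sulphur cluster synthesis, had the largest such fall in EV. It was at 84.9, 80.6 and 85.8 CPM in untreated and 48.5, 52.9 and 59.5 CPM in treated EV, a change of -0.64 ± 0.136 (adjusted p = 6.06e-04, edgeR). It fell in WT (-0.37 ± 0.134) and MUT (-0.73 ± 0.135) as well, and was called in all 3 lines in 14 of 18 fits with a library left out. NDUFA9, an accessory subunit near the joint of the 2 arms, changed by -0.57 ± 0.129 in EV, -0.22 ± 0.128 in WT (adjusted p = 0.154) and -0.74 ± 0.128 in MUT. NDUFS4, a subunit of the NADH-oxidising part, changed by -0.25 ± 0.0893, -0.51 ± 0.0888 and -0.70 ± 0.0879.

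Of the 7 nuclear core subunits of complex I, which bind the flavin and iron-sulphur clusters that carry electrons, 1 fell in EV, 3 in WT and 6 in MUT. The shares of all genes that fell were 22.9%, 22.7% and 25.9%. NDUFS1, which holds several of the clusters, changed by -0.13 ± 0.072, -0.05 ± 0.0719 and 0.02 ± 0.0716 and did not pass in any line. The accessory subunit NDUFA8 was at 46.7, 45.3 and 45.9 CPM in untreated and 53.5, 51.3 and 55.8 CPM in treated EV, where it rose by 0.22 ± 0.0836 (adjusted p = 0.0349, edgeR). NDUFA8 changed by 0.15 ± 0.0828 in WT and -0.13 ± 0.0834 in MUT, neither of which passed.

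Complexes III and IV had no member that fell in every line, where 16.4% of all genes did. With 9 and 13 tested nuclear members, this is not read as a difference from that share. In complex III, 2 of 9 nuclear members fell in EV, 2 in WT and 6 in MUT. The 22.2% in EV and in WT was near the 22.9% and 22.7% of all genes, and in MUT 25.9% of all genes fell. UQCRH was at 107, 110 and 103 CPM in untreated and 128, 86.5 and 87.6 CPM in treated EV, which overlap (change -0.08 ± 0.111). Its values were 104, 106 and 112 against 85.4, 80.4 and 88.1 CPM in WT and 130, 155 and 154 against 94.3, 89.7 and 88.9 CPM in MUT, where it fell by 0.34 ± 0.111 and 0.69 ± 0.11. UQCRB changed by 0.06, 0.00 and -0.18 and passed in no line.

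In complex IV, none of the 13 tested nuclear members fell in EV, 1 fell in WT and 7 in MUT, against 22.9%, 22.7% and 25.9% of all genes. At an unadjusted p under 0.05 complex IV had 2 calls in either direction in EV. COX5B, the member that fell in WT, was at 116, 119 and 113 CPM untreated and 88.7, 87.6 and 96.8 CPM treated (-0.35 ± 0.107, adjusted p = 0.0113, edgeR), and fell by 0.47 ± 0.106 in MUT. COX4I1 changed by -0.05, -0.13 and -0.30 and COX7A2L by -0.14, -0.19 and -0.49, each passing in MUT alone. COX8A, the most abundant per length, passed in no line. COX6B2 passed as higher in EV and MUT, on 2 to 4 against 5 to 20 counts in EV and 0 to 2 against 7 to 14 counts in MUT; it was at or under the floor of 3 counts per library in untreated MUT, so its fitted change there is no bound.

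**Figure D3:**
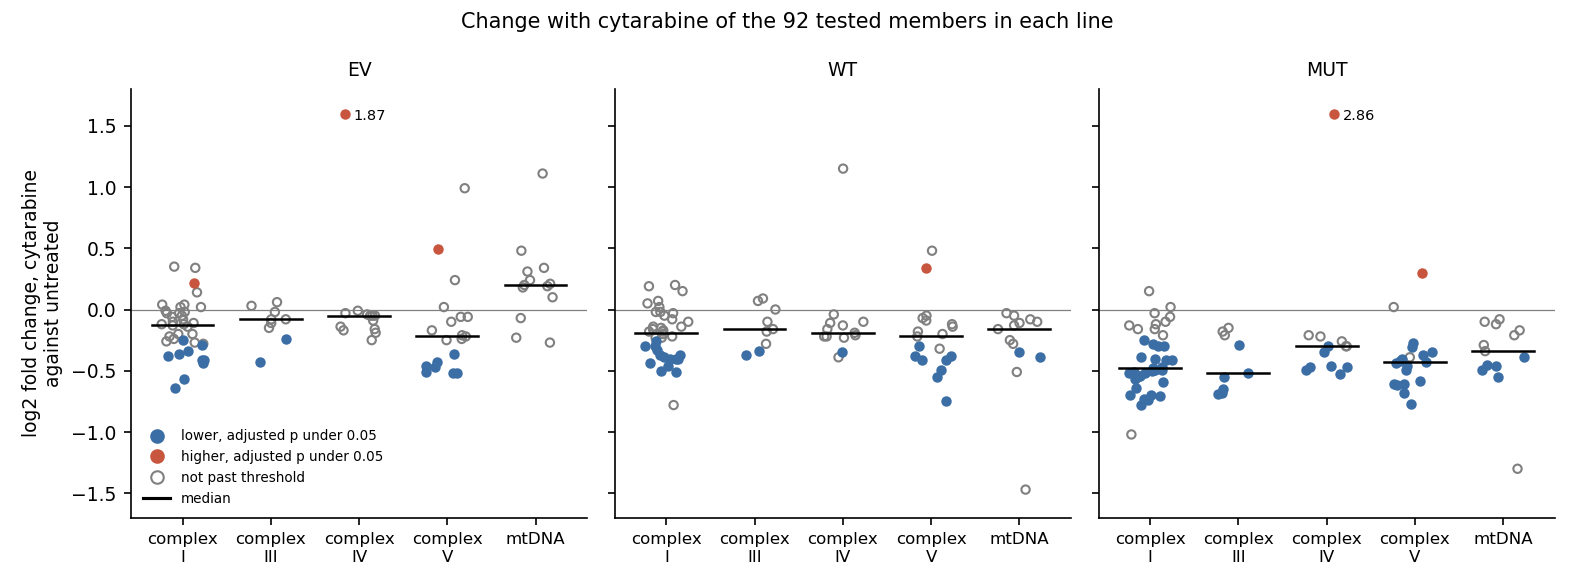
Log2 fold change with cytarabine (vertical axis) of each tested member in EV, WT and MUT, by complex for nuclear members and together for mitochondrially encoded members (mtDNA), with lines at the medians. Filled points passed the threshold, and 2 points beyond the axis (COX6B2) are drawn at its edge with their values of 1.87 and 2.86. Falls are most numerous in MUT, and complex IV has no fall in EV.

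Of the 13 mitochondrially encoded members, none passed in EV, 2 fell in WT (MT-ND1 and MT-ND2) and 5 fell in MUT (MT-ND1, MT-ND2, MT-ND3, MT-ATP6 and MT-CO3), with none raised. Over all genes 22.9%, 22.7% and 25.9% fell in EV, WT and MUT, and 26.1%, 26.3% and 30.4% rose. The falls are 15.4% of the members in WT, below that background, and 38.5% in MUT. In EV 1 member had an unadjusted p under 0.05, and DESeq2 likewise called none. The medians were 0.20, -0.16 and -0.34. Leaving out treated EV replicate 2 together with untreated MUT replicate 3, which was tried after seeing the data, gave 2 calls in EV and 10 in MUT, and untreated MUT replicate 1 alone gave 1 call in MUT, with MT-CO3 at 0.07. These counts therefore depend on which libraries enter, and the shares of all genes called in the other fits are not given.

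MT-ND1 (M, 3307 to 4263, plus strand) and MT-ND2 (M, 4470 to 5512, plus strand) encode membrane subunits of complex I and lie next to each other after the rRNA genes. MT-ND1 was at 1505, 1399 and 1299 CPM in untreated and 1022, 1467 and 1100 CPM in treated EV, which overlap. It was at 1371, 1265 and 1373 against 1120, 1044 and 987 CPM in WT and at 1311, 2031 and 1314 against 1133, 1154 and 1102 CPM in MUT, without overlap in either. The log2 changes of MT-ND1 were -0.23 ± 0.138, -0.35 ± 0.139 and -0.46 ± 0.139 (adjusted p = 0.185, 0.0444 and 0.00857, edgeR), and those of MT-ND2 were -0.27 ± 0.137, -0.39 ± 0.137 and -0.45 ± 0.137 (adjusted p = 0.114, 0.023 and 0.00848).

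The WT calls for these 2 genes are marginal: with a WT library left out, at most 1 mitochondrially encoded member passed in WT. The other members of the same genome gave values as follows. MT-CO1 changed by 0.20 ± 0.167, -0.05 ± 0.167 and -0.29 ± 0.167, and MT-CYB, the complex III subunit, by 0.21 ± 0.16, -0.16 ± 0.16 and -0.21 ± 0.16. MT-ND6, the one mRNA read from the opposite strand, changed by 0.48 ± 0.213, -0.10 ± 0.212 and -0.10 ± 0.212. None of these passed in any line.

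MT-ND3, MT-ATP6 and MT-CO3 fell in MUT by 0.55 ± 0.126, 0.49 ± 0.154 and 0.39 ± 0.142. MT-ND3 was at 963, 1558 and 1043 CPM in untreated and 875, 807 and 756 CPM in treated MUT. MT-CO2 missed the threshold in MUT (-0.34 ± 0.146, adjusted p = 0.0541, edgeR), and MT-ND4 and MT-ND5 changed there by -0.12 ± 0.155 and -0.08 ± 0.179.

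**Figure D4:**
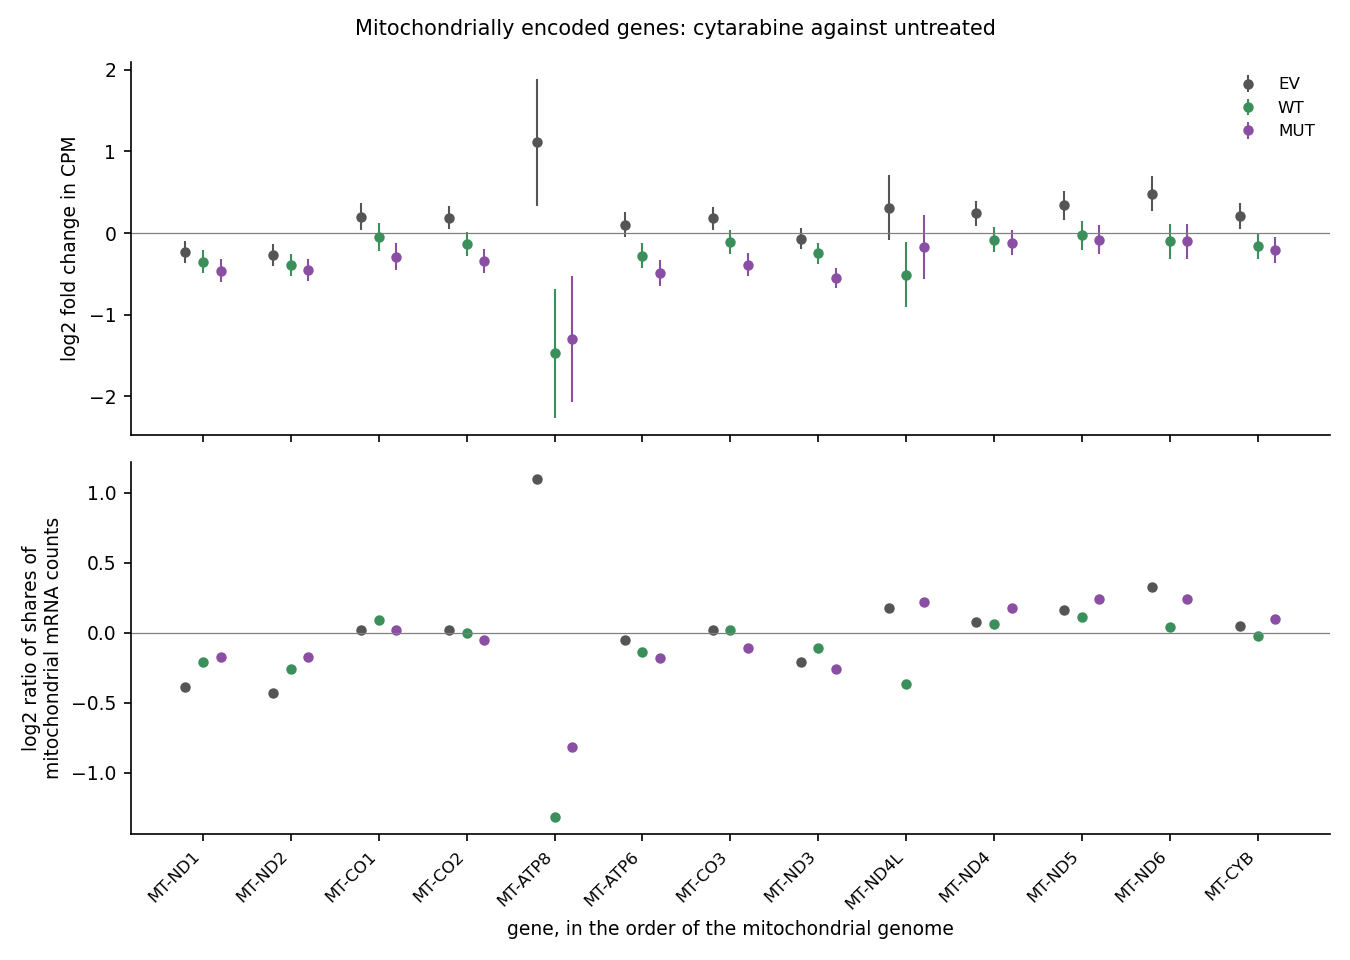
Change with cytarabine of the 13 mitochondrially encoded genes in genome order for EV, WT and MUT, as log2 fold change in CPM with its SE (top) and as the log2 ratio of the gene's mean share of all mitochondrial mRNA counts (bottom, no error drawn). MT-ND1 and MT-ND2 are below 0 in both panels in every line, and MT-ATP8 has the widest errors.

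Shares within the mitochondrial mRNA pool, which need no scaling between libraries, showed a change in composition. MT-ND1 held 4.32 to 4.99% of the pool in the 9 untreated libraries and 3.28 to 4.32% in the 9 treated ones, and MT-ND3 held 3.41 to 3.79% against 2.67 to 3.39%, with every treated library below every untreated one for each gene, though for MT-ND1 the nearest values round alike. Neighbouring MT-ND2 was lower in treated libraries within each line but overlapped across lines (4.78 to 6.25% against 4.01 to 5.19%). Together MT-ND1 and MT-ND2 fell from 9.98 ± 0.0212 to 7.49 ± 0.23% in EV, from 10.7 ± 0.183 to 9.06 ± 0.106% in WT and from 9.95 ± 0.56 to 8.83 ± 0.197% in MUT (SD, n = 3). Of the libraries with the highest mitochondrially encoded sums, treated EV replicate 2 gave 7.41%, between its replicates, and untreated MUT replicate 2 gave 9.33%, the lowest of the untreated libraries, the others of which lay between 9.96 and 10.8%. MT-ND4, MT-ND5 and MT-ND6 together held 17.2 to 20.1% untreated and 20.1 to 21.4% treated, and MT-CO1 stayed at 29.6 to 34.4% and 32.2 to 36.1%. The pair of MT-ND1 and MT-ND2 was chosen after these values were seen, so they are given as a description, with no test.

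**Figure D5:**
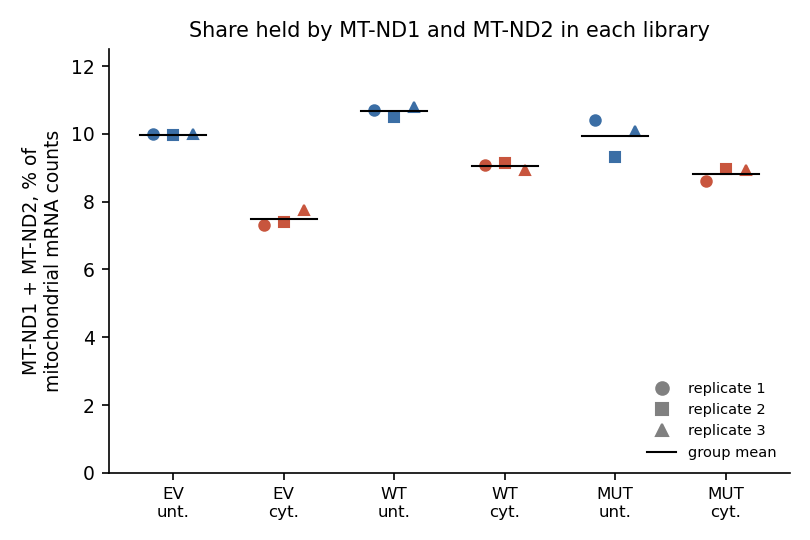
Percent of all mitochondrially encoded mRNA counts held by MT-ND1 and MT-ND2 together in each library (vertical axis from 0, symbols for replicates, lines for group means). The 9 treated libraries lie between 7.32 and 9.15% and the 9 untreated ones between 9.33 and 10.8%, with the lowest values in treated EV.

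MT-ATP8, whose overlap with MT-ATP6 is printed above, varied widely between replicates. It was at 93.2, 71.3 and 47.1 CPM in untreated and 340, 71.7 and 44.2 CPM in treated EV, at 88, 90.7 and 167 against 32.4, 28.4 and 63.5 CPM in WT, and at 149, 446 and 17.9 against 123, 93.3 and 31.9 CPM in MUT. Its changes of 1.11 ± 0.773, -1.47 ± 0.79 and -1.30 ± 0.768 did not pass, although the WT groups did not overlap. The nuclear pseudogene copies of mitochondrial genes held 0.0641% of all counts in treated EV replicate 1 and 0.0761% in untreated MUT replicate 2, the 2 libraries highest in MT-ATP8, and 0.0135% in untreated MUT replicate 3, the lowest. MT-ND4L was also at its highest in untreated MUT replicate 2 (694 CPM) and its lowest in replicate 3 (95.6 CPM). MT-ATP6 shared the high value in replicate 2 but not the drop in replicate 3. It was at 1806, 3099 and 1814 CPM in the 3 untreated MUT libraries, of which replicates 1 and 3 were alike. How reads with several matches were counted is not given in the sources used here, and its part in these values was not tested.

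The difference between the lines' responses to cytarabine was tested directly. None of the 92 members passed for MUT minus EV, MUT minus WT or WT minus EV (edgeR), against a background of 0.214%, 1.0% and 0.285% of all genes. At an unadjusted p under 0.05 there were 23, 15 and 3 nuclear and 5, 0 and 1 mitochondrially encoded members, and DESeq2 called 13, 5 and 0 nuclear members. No share of all genes is given for these counts. The median nuclear member responded more negatively in MUT by 0.26 than in EV and by 0.23 than in WT (log2), where the medians of all genes were 0.0 and -0.0. In each comparison 72 of 79 had a negative difference, and these 2 comparisons share the MUT libraries. The median nuclear member of MUT was above EV by 0.26 untreated and 0.01 treated, and above WT by 0.20 and 0.02. Without untreated MUT replicate 3 the median cytarabine effect in MUT was -0.30, against -0.43 with it. Without treated EV replicate 2 and untreated MUT replicate 3, MUT minus EV gave 7 nuclear calls and 1 mitochondrially encoded call, again with no share of all genes given.

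NDUFB7, an accessory subunit of complex I on the intermembrane side, came closest to the threshold, in MUT minus EV. It was at 52.6, 50.7 and 48.9 CPM in untreated and 51.3, 45.9 and 44.8 CPM in treated EV, which overlap, and at 69.1, 86 and 95.7 against 53.2, 48.5 and 51.8 CPM in MUT, which do not. The responses of -0.10 ± 0.0912 and -0.71 ± 0.0893 differed by -0.61 ± 0.127 (adjusted p = 0.0539, edgeR). In the same comparison UQCRH followed with -0.60 ± 0.156 (adjusted p = 0.102), and NDUFS4 with -0.45 ± 0.125, NDUFS5 with -0.48 ± 0.134 and NDUFV2 with -0.62 ± 0.172 shared an adjusted p of 0.115. In MUT minus WT, NDUFS5 was nearest with -0.47 ± 0.134 (adjusted p = 0.0982, edgeR). For ATP5F1B the MUT response was 0.22 lower than the EV one with a 95% interval of the difference from -0.39 to -0.05 and an adjusted p of 0.231.

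The untreated lines were compared with one another. In untreated MUT against EV, 29 nuclear members were higher and 1 lower, where the background was 9.88% higher and 10.0% lower (19.9% in all), and the median nuclear member was 0.26 higher (log2). Against WT, 18 were higher and none lower (background 11.7% and 9.54%, 21.2% in all; at an unadjusted p under 0.05, 28 in either direction). WT against EV gave 2 higher and 1 lower (background 4.30% and 7.36%). No mitochondrially encoded member passed in these comparisons in edgeR or DESeq2, nor at an unadjusted p under 0.05, in the fit of all libraries. With the compared groups alone in the fit, WT against EV gave 34 nuclear and 4 mitochondrially encoded calls, for which the share of all genes is not given. Leaving out untreated MUT replicate 2 gave 3 mitochondrially encoded calls against EV, and leaving out replicate 3 gave 1. Without replicate 1 there was 1 call against WT. For these fits too the share of all genes is not given.

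These untreated counts depend on single libraries. Shares of all genes called in the fits of this paragraph are not given, so a changed count may also reflect more or fewer calls over all genes. With untreated MUT replicate 3 left out, the count against EV was 16 higher, all among the 29, and 4 lower, with a median of 0.12. Without replicate 2 it was 53 higher and 2 lower, with a median of 0.40, and with replicate 1 alone, an alternative added after seeing the data, 18 higher and 2 lower. Against WT, the 18 higher members became 15 with 5 lower without replicate 3, and 45 with 1 lower without replicate 2. Leaving out an EV library left 13 to 19 calls against EV, and leaving out any 1 of 5 libraries left 1 call for WT against EV. A fit of the 2 groups alone gave 9 calls against EV and 3 against WT. Across the 6 fits with an EV or MUT untreated library left out, 11 members were higher in each: ATP5MC3, COX7A2L, NDUFA11, NDUFB7, NDUFB9, NDUFS4, NDUFS6, NDUFS7, NDUFV1, NDUFV2 and UQCRH. In the same way the cytarabine count in MUT of 56 falls became 44 without untreated MUT replicate 3 and 71 without replicate 2.

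Among members that passed, differences between untreated lines were as follows for complexes I, III and V. NDUFB7 was 0.72 ± 0.0902 higher in MUT than in EV and 0.38 ± 0.0903 higher in WT than in EV, with 66.7, 66 and 65.5 CPM in WT. NDUFS7, a core iron-sulphur subunit, was at 71.2, 71.3 and 70.3 CPM in EV and 106, 99.1 and 141 CPM in MUT (0.70 ± 0.109, adjusted p = 2.13e-04, edgeR). NDUFS6, which binds zinc, was at 110, 109 and 102 CPM in EV, 121, 124 and 121 CPM in WT and 149, 156 and 204 CPM in MUT, 0.66 ± 0.0903 above EV and 0.47 ± 0.0898 above WT. ATP5PO, the stalk subunit that confers oligomycin sensitivity, was 0.76 ± 0.139 higher in MUT than in WT, and UQCRHL 0.48 ± 0.1 higher. NDUFV2, a core subunit, was 0.40 ± 0.122 higher in WT than in EV.

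NDUFA5, an accessory subunit of the NADH-oxidising arm, was the nuclear member that was lower in untreated MUT. It was at 56.9, 58.1 and 57.5 CPM in EV, 43.1, 42.3 and 44.5 CPM in WT and 37.3, 29.3 and 47.2 CPM in MUT. The 3 EV libraries were above all libraries of the other lines, and the differences were -0.60 ± 0.111 for MUT and -0.41 ± 0.11 for WT (adjusted p = 8.81e-04 and 0.0189, edgeR). Treated, it was again lower than EV in MUT (-0.35 ± 0.111) and in WT (-0.45 ± 0.111).

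The treated lines were compared in the same way. MUT against EV gave 2 nuclear members higher and 4 lower (background 6.85% and 7.13%), MUT against WT 3 and 4 (10.4% and 9.48%, 19.8% in all) and WT against EV 0 and 4 (7.41% and 9.12%). These 6, 7 and 4 calls fell to 1 without treated EV replicate 3, to 2 without treated MUT replicate 2 and to 0 without treated WT replicate 2, and fits of the compared groups alone gave 12, 24 and 7. The shares of all genes called in these other fits are not given. NDUFS5, an accessory subunit, was at 174, 156 and 153 CPM in treated EV, 157, 150 and 153 CPM in treated WT and 128, 114 and 121 CPM in treated MUT, and was lower in MUT than in either line (-0.41 ± 0.0951 and -0.34 ± 0.0951). NDUFA8 was lower in treated MUT too (-0.27 ± 0.0829 and -0.32 ± 0.0827), whereas NDUFS1 was higher (0.27 ± 0.0717 and 0.29 ± 0.0717). ATP5PO remained higher in treated MUT than in treated WT (0.50 ± 0.139), and COX5B was lower in treated WT than in either line (-0.33 ± 0.107 against EV). Mitochondrially encoded members were lower in treated MUT than EV for MT-ATP6, MT-CO3 and MT-ND3 and in treated WT than EV for MT-ATP6, MT-CO1 and MT-ND4, 3 in each. Without treated EV replicate 2 neither comparison called any, and MUT against WT called none.

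Genes that build and maintain the system were looked at from lists of the same pathway, against the shares of all genes that fell (22.9%, 22.7% and 25.9% in EV, WT and MUT, and 16.4% in all 3) or rose (26.1%, 26.3% and 30.4%). Mitochondrial ribosomal proteins, which translate the mitochondrial mRNAs, numbered 78, of which 65 fell in EV, 54 fell in WT and 74 fell in MUT, with none raised and medians of -0.40, -0.36 and -0.65. Of the 78, 54 fell in all 3 lines. MRPL54 went from 24.3 ± 1.8 to 11.5 ± 2.02 CPM in EV (SD, n = 3; log2 change -1.07 ± 0.141), and MRPL1 and MRPL20 changed by -0.95 and -0.99 there. In the factors that process and stabilise mitochondrial RNA, 18, 17 and 19 of 22 fell, with medians of -0.52, -0.40 and -0.53. Among them the poly(A) polymerase MTPAP went from 43.9 ± 0.944 to 24.9 ± 2.4 CPM in EV and the exoribonuclease PNPT1 from 86.2 ± 1.31 to 49.8 ± 2.49 CPM.

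Of 16 genes for replication and transcription of mitochondrial DNA, 9 fell in each line and 0, 3 and 2 rose. The transcription factor TFB2M changed by -1.11 ± 0.0805, -0.82 ± 0.0796 and -1.06 ± 0.0804, and the helicase TWNK by -0.93 ± 0.104, -0.85 ± 0.103 and -1.04 ± 0.104. Among 49 assembly factors, 23, 25 and 31 fell and 1, 2 and 0 rose, led by the complex I assembly protein ECSIT (-1.10, -0.95 and -1.28). Complex II, whose 4 subunits are all nuclear, had 2 falls in each line, SDHB and SDHD, and 1 rise in WT. Of the 5 genes for cytochrome c, its lyase and the carriers of ADP and phosphate, 3, 4 and 4 fell and 1, 1 and 0 rose, and cytochrome c itself (CYCS) went from 456 ± 12.1 to 269 ± 7.27 CPM in EV.

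Of 8 regulators of mitochondrial biogenesis tested, 6, 6 and 5 fell and 1 rose in each line. NRF1, a transcription factor, went from 21.4 ± 1.02 to 11.3 ± 1.4 CPM with treatment in EV (SD, n = 3), and its log2 changes were -0.92 ± 0.129, -1.47 ± 0.132 and -1.31 ± 0.129. The coactivator PPRC1 changed by -1.20 ± 0.103, -1.05 ± 0.102 and -0.90 ± 0.102. The related coactivator PPARGC1A rose from 0.139 ± 0.0703 to 1.47 ± 0.0305 CPM in EV, 0.107 ± 0.058 to 0.433 ± 0.108 CPM in WT and 0.277 ± 0.0651 to 0.97 ± 0.231 CPM in MUT, all levels of few counts. Of 8 genes that supply nucleotides to mitochondria, 3, 4 and 3 rose and 1, 1 and 3 fell. RRM2B, the small ribonucleotide reductase subunit induced by p53, went from 246 ± 5.7 to 441 ± 29.8 CPM in EV, and thymidine kinase TK2 from 27 ± 1.21 to 34 ± 1.58 CPM. Neither of the 2 mitochondrial rRNAs passed in any line, and of 11 tested nuclear pseudogene copies of mitochondrial genes 0, 1 and 2 fell and none rose.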

How the data were processed

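RNA of 18 libraries of U2OS cells was sequenced. Reads were aligned with STAR 2.6.1d to hg38 after CASAVA base calling, per the submitters' processing notes; the counting tool, its use of strand and its treatment of reads with several matches are not given in the sources used here. The authors deposited estimated counts per gene (70.4% of values whole), and a normalized signal that equalled 1 plus a library factor times the estimated count (largest relative deviation 7.36e-06 over 19587 genes); the second was used for its factors only. In the deposited table, gene ends lay 1 base past those of GENCODE v44 for 57 of the 94 members.

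Estimated counts were rounded and fitted with edgeR 4.0.16 in R 4.3.3 (filterByExpr, TMM, 6 group coefficients, quasi-likelihood F test over 18226 genes, Benjamini-Hochberg, threshold 0.05), after tests on simulated data. The common biological coefficient of variation was 0.104. SE is the size of the log2 change over the root of F, and a prior count of 2 went into log2 CPM. DESeq2 1.42.0 was an alternative. Depth was 15.4 to 21.9 M counts per library; replicate pairs all differed beyond sampling noise (chi-square per degree of freedom 2.45 to 46.8) and were kept apart. The labels call replicates biological and say no more of their origin, so p-values measure the spread between these samples.

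Named were all mitochondrially encoded members, the 3 largest rises and falls of nuclear members per comparison (past the threshold, mean log2 CPM of at least 1, no overlap), the highest and lowest per length in each complex, isoform pairs, and up to 3 genes per related list called alike in all 3 lines. Other genes were chosen after their values were seen. The members, lists and roles were chosen with earlier results of these data known. The values of 1 member are not reported here by name.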

Additional observations from a re-analysis of the deposited data

How the results depend on the processing

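The alternatives changed 1 choice at a time, and counts are of members called in either direction. Shares of all genes called under each alternative are not given, so a changed count may also reflect more or fewer calls over all genes. Library totals alone gave 16 nuclear calls for cytarabine in WT, 31 in MUT and 17 for untreated MUT against EV, and 6, 0 and 1 mitochondrially encoded calls for cytarabine in EV, WT and MUT. For those same 3 cytarabine effects, RLE factors gave 1 mitochondrially encoded call in WT, upper-quartile factors 1 in EV and 1 in WT, the authors' factors 1 in EV, and a mean of at least 50 counts 1 in EV and 1 in WT. For the response of MUT minus EV, RLE, upper-quartile, library totals and the 50-count filter each gave 1 nuclear call and DESeq2 13, and for MUT minus WT DESeq2 gave 5. In treated cells the authors' factors gave 3 nuclear calls in MUT against EV and 4 in MUT against WT. Without a low-count filter these comparisons gave 3 in MUT against EV and 1 in WT against EV, the 50-count filter gave 5 mitochondrially encoded calls in MUT against EV, and WT against EV had 1 such call without a filter and 1 with DESeq2.

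With only the compared groups in the fit, and so fewer samples behind the spread, cytarabine in EV, WT and MUT gave 2, 9 and 3 mitochondrially encoded calls and WT 57 nuclear ones. Untreated MUT against EV, MUT against WT and WT against EV then gave 9, 3 and 34 nuclear calls and the last 4 mitochondrially encoded ones, and the treated comparisons in that order gave 12, 24 and 7 nuclear and 7, 4 and 8 mitochondrially encoded calls. The cause was not tested.

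The next alternatives were added after seeing the data. Without treated EV replicate 2 and untreated MUT replicate 3, mitochondrially encoded calls were 2 and 10 for cytarabine in EV and MUT, 1 for MUT minus EV, and 1 each for untreated MUT against EV and against WT and for treated MUT and WT against EV. Nuclear calls were then 7 for MUT minus EV, 1 for MUT minus WT, and 16 and 12 for treated MUT and WT against EV. With untreated MUT replicate 1 alone, assumed to vary like the other groups, cytarabine in MUT gave 1 mitochondrially encoded call with MT-CO3 at 0.07, and untreated MUT against WT gave 11 nuclear calls. With rRNA in the pool, the change in the MT-ND1 and MT-ND2 share in EV was -2.24 points against -2.49.

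With 1 library left out, nuclear calls for cytarabine ran from 18 to 26 in EV, 20 to 22 in WT and 44 to 73 in MUT, and mitochondrially encoded ones from 0 to 2, 0 to 1 and 4 to 10. Responses ran from 0 to 10 nuclear calls for MUT minus EV (0 to 2 mitochondrially encoded), 0 to 9 for MUT minus WT and 0 to 0 for WT minus EV. Untreated MUT against EV, MUT against WT and WT against EV ran from 13 to 55, 13 to 46 and 1 to 2 nuclear calls (0 to 3, 0 to 1 and 0 to 0 mitochondrially encoded). Treated, they ran from 1 to 5, 2 to 4 and 0 to 4 (0 to 5, 0 to 0 and 0 to 4). The change in the log2 ratio of the genomes ran from 0.11 to 0.46 in EV, 0.02 to 0.12 in WT and -0.11 to 0.51 in MUT, and that of the MT-ND1 and MT-ND2 share from -2.62 to -2.40, -1.71 to -1.53 and -1.43 to -0.89 points.

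The labels do not say whether replicate numbers pair the libraries. After group means were taken off, same-numbered libraries of different groups correlated at -0.176 to 0.352 (median -0.016) and others at -0.368 to 0.297 (median 0.003). With 3 libraries in each group these values cannot exclude a pairing. With a replicate block, nuclear calls for cytarabine were 23, 28 and 57 in EV, WT and MUT and mitochondrially encoded ones 0, 2 and 5, and no count of calls in the comparisons moved by over 1.5 times.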
